A study of Homo sapiens with 12 samples.

Results

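The genes described here are 9 interferon response genes, IFITM1, IFITM2, IFITM3, ISG15, UBE2L6, IFI6, IFI35, IRF9 and IRF1, chosen by symbol and found by Ensembl identifier among 17786 genes of the count table. Each of the 9 had 1 row, and each passed the filter on low counts that left 13598 genes for testing. They were measured by sequencing of poly(A)-selected RNA from K562 cells, a line from a chronic myelogenous leukaemia, in 12 libraries. In 4 libraries the cells had been given 2 mM alpha-ketobutyrate (AKB) for 24 h, in 4 others 2 mM pyruvate for 24 h, and 4 came from untreated cells. All groups were the same cell line in the same serum-containing RPMI medium with glutamine, and the study compared them to learn how transcription responds to these electron acceptors. AKB and pyruvate are small 2-oxo acids, AKB being longer by a methylene group, and lactate dehydrogenase reduces either of them while oxidising NADH. The labels leave unsaid whether replicate libraries were grown as separate cultures. The p-values therefore measure the spread between these libraries, which may be technical.

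Interferons are secreted proteins, and cells release those of type I on sensing viral or misplaced nucleic acid. Type I interferons bind the receptor IFNAR1/IFNAR2, whose kinases JAK1 and TYK2 phosphorylate STAT factors such as STAT2, and these join IRF9 to form the factor ISGF3, which binds the interferon-stimulated response element (ISRE). Type II interferon acts through IFNGR1/IFNGR2 and leads to binding at the gamma-activated site (GAS). Among the genes they switch on are membrane proteins that block viral entry (the IFITM proteins), the ubiquitin-like modifier ISG15 with its conjugating enzyme UBE2L6, and further transcription factors such as IRF1. K562 is known to have lost the part of chromosome 9 that carries the type I interferon genes, and the 9 interferon ligand genes looked for were not analysed here.

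The sequences of the IFITM genes are shown because they bear on how reads could be divided among them. IFITM1 (ENSG00000185885, chr11:313506-315272, plus strand), IFITM2 (ENSG00000185201, chr11:307631-315272, plus strand) and IFITM3 (ENSG00000142089, chr11:319669-327537, minus strand) are neighbouring paralogs in GENCODE 29 on GRCh38. The annotated IFITM2 gene runs over the whole of IFITM1, and the genes share 351 exon bases. Their longest coding sequences, aligned in pairs, were 94.0% identical between IFITM2 and IFITM3, 84.1% between IFITM1 and IFITM2, and 86.4% between IFITM1 and IFITM3. A run of 90 coding bases, bases 175 to 264 of IFITM1, 235 to 324 of IFITM2 and 238 to 327 of IFITM3, was the same in all of them.
IFITM1, IFITM2 and IFITM3: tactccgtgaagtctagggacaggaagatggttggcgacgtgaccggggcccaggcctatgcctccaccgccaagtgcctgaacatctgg
The 60-base stretch that differed most had 23 positions, in capitals, at which the genes were not all alike. It covers bases 269 to 328 of IFITM1, 329 to 388 of IFITM2 and 332 to 391 of IFITM3.
IFITM1: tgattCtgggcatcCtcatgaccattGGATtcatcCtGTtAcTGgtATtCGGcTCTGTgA
IFITM2: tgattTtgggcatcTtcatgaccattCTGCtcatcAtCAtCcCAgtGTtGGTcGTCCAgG
IFITM3: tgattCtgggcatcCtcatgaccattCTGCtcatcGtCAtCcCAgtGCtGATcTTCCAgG
Of all 31-base words in the annotated transcripts of each gene, 35.3% of those of IFITM1, 45.2% of those of IFITM2 and 36.4% of those of IFITM3 also occurred in another gene. Counts for single IFITM genes are therefore uncertain, and they are given beside the sum over the family, which does not depend on the division among them. For ISG15 and UBE2L6, 0 such words were shared.

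Promoters are shown for the 5 genes whose starts carry the ISRE core or, for UBE2L6, carry neither motif searched, so that the letters can be set beside the values. The motifs were the ISRE core, which is GAAA, any 2 bases and GAAA again, searched on both strands, and the GAS TTCNNNGAA, which reads alike on both strands, in windows from 250 bases before to 50 after each RefSeq start. Over 35116 such RefSeq windows of 300 bases on GRCh38.p14, 3.57% held the ISRE core, 7.66% the GAS and 0.439% both. The 160 bases before the start are printed in the direction of transcription, with matches in capitals.
IFITM1 (chr11:313880-314039, plus strand): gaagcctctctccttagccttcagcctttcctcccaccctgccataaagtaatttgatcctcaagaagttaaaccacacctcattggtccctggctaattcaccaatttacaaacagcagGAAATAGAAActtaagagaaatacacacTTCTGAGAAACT
IFITM3 (chr11:320861-321020, minus strand): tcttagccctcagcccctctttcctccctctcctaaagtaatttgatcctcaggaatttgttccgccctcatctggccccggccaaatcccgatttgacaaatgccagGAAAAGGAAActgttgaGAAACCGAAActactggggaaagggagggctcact
ISG15 (chr1:1013337-1013496, plus strand): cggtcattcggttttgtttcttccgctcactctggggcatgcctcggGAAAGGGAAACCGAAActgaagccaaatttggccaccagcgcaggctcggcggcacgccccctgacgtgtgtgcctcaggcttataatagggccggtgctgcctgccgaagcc
IFI6 (chr1:27672193-27672352, minus strand): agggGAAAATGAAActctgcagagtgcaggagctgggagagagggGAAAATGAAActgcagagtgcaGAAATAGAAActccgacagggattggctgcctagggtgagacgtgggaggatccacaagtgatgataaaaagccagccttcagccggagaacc
UBE2L6 (chr11:57567936-57568095, minus strand): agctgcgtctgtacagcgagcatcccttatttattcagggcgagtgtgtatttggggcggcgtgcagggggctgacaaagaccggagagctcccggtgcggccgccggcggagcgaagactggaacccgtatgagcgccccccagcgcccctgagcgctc
Counting the start as position 0, IFI6 had 3 ISRE cores between positions -156 and -84. ISG15 had 2 that overlap (-113 to -104 and -107 to -98), and IFITM3 had 2 (-52 to -43 and -35 to -26). IFITM1 had an ISRE core from -40 to -31 and another from -6 to 3, which overlaps its GAS at -12 to -4 and runs past the printed bases. IRF1, IRF9 and IFI35 had 1 GAS each and no ISRE core in the window. Neither motif was found in either window of UBE2L6, which has 2 RefSeq starts. A match describes the letters of the window and is not evidence of binding.

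The libraries held 15353200 to 21301073 counts, and the largest totals, 19891231 and 21301073, were those of pyruvate replicates 3 and 4. Those libraries stood apart from the other 10 in how counts followed GC content. Their log2 level, taken from each gene's mean over the libraries, changed by 0.33 and 0.35 for each 10 percentage points of transcript GC. The other 10 were at -0.16 to 0.02. Among these, untreated replicates 1 to 4 were at -0.16, -0.10, -0.12 and 0.001, and AKB replicates 1 to 4 at -0.10, 0.01, 0.02 and -0.02. The median GC content was 56.1% over the 9 genes and 48.1% over all genes tested. The results on pyruvate below are therefore also given without pyruvate replicates 3 and 4 where they moved. All 9 erythroid and K562 markers looked for, among them HBG1 and GATA1, were above a mean of 1 CPM (counts per 1e6 counts of the tested genes in the library, after TMM scaling), and their summed level was 15497 to 17270 CPM with AKB, 11986 to 13463 CPM with pyruvate and 14116 to 15786 CPM in untreated cells. Of monocyte markers, LYZ was the one above 1 CPM, CD14 and CSF1R averaged 0.295 and 0.0474 CPM, and the sum over the list was 42.2 to 52.9 CPM with AKB, 28.6 to 36.4 CPM with pyruvate and 30.5 to 37.7 CPM in untreated cells. The T and NK cell list summed to 9.32 to 10.9 CPM with AKB, 7.28 to 10.6 CPM with pyruvate and 6.17 to 7.24 CPM in untreated cells. For B and plasmacytoid dendritic cell markers the sum was 1.54 to 1.85 CPM with AKB, 0.77 to 1.62 CPM with pyruvate and 0.705 to 1.10 CPM in untreated cells. The fibroblast list summed to 9.32 to 12.1 CPM with AKB, 7.70 to 9.47 CPM with pyruvate and 7.49 to 10.6 CPM in untreated cells. For megakaryocyte markers the sum was 8.95 to 11.2 CPM with AKB, 5.27 to 8.03 CPM with pyruvate and 4.96 to 5.85 CPM in untreated cells. Their part in the results below was not tested. In bulk RNA, more cells that express a gene and more RNA per cell cannot be told apart.

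UBE2L6, the conjugating enzyme for ISG15, was the gene of the 9 that passed edgeR's quasi-likelihood test in the fit to all 12 libraries. Its level with AKB was 2.08-fold that of untreated cells and 2.30-fold that of pyruvate. The other 8 genes did not pass in any comparison of that fit, which does not show that they were unchanged. With AKB, IFITM2 and IFITM3 were above every untreated library, both at log2 0.58, but their adjusted p was above 0.05 by edgeR's quasi-likelihood test with TMM scaling, and below it in some alternatives given further on. With pyruvate no gene passed, and 8 of 9 fold changes were above 0.

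**Figure D1:**
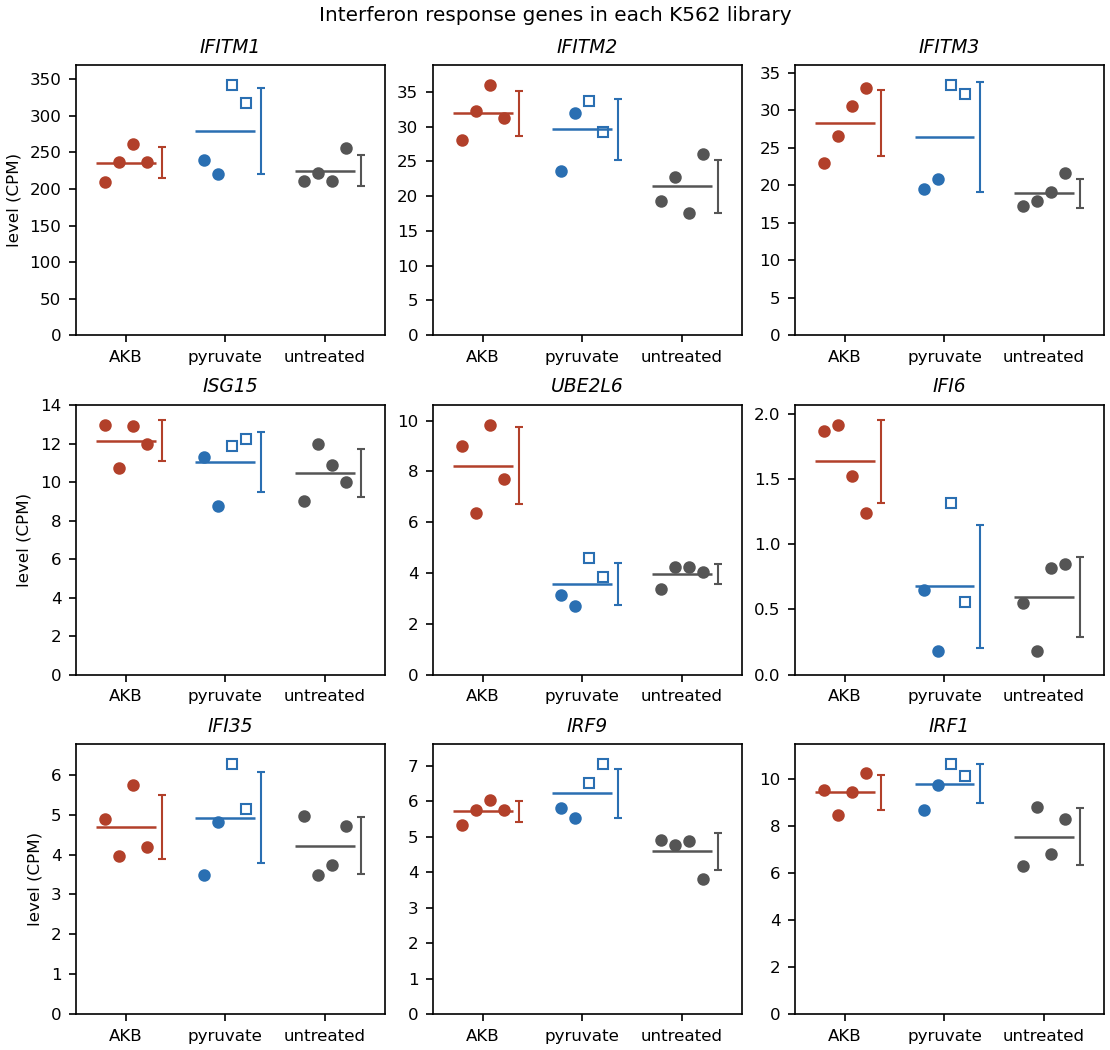
Level of each of the 9 interferon response genes in every library, in CPM (counts per 1e6 counts of the tested genes after TMM scaling, linear axis from 0), for AKB, pyruvate and untreated cells, with lines at the mean and bars for the SD of 4 libraries. Open squares are pyruvate replicates 3 and 4. The 4 AKB points of UBE2L6, at 6.36 to 9.84 CPM, lie above all others, and in most panels the open squares lie in the upper part of the pyruvate group.

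The conjugation of ISG15 to target proteins runs through an activating enzyme (UBA7), a conjugating enzyme (UBE2L6) and ligases such as HERC5. UBE2L6 (ENSG00000156587, chr11:57551656-57568284, minus strand) had 9.0, 6.36, 9.84 and 7.72 CPM with AKB. It had 3.14, 2.71, 4.6 and 3.83 CPM with pyruvate and 3.36, 4.22, 4.23 and 4.04 CPM in untreated cells. Every AKB library lay above every library of both other groups, while the pyruvate and untreated libraries overlapped. The means were 8.23 ± 1.52 CPM with AKB, 3.57 ± 0.827 CPM with pyruvate and 3.96 ± 0.411 CPM in untreated cells (SD, n = 4 each). Against untreated cells UBE2L6 was 2.08-fold higher with AKB (log2 1.05, SE 0.19, 95% interval 0.65 to 1.46, adjusted p = 0.0142 by edgeR's quasi-likelihood test). This call ended when untreated replicate 1 (log2 0.98, adjusted p = 0.0633), AKB replicate 1 (log2 1.01, adjusted p = 0.0508) or AKB replicate 3 (log2 0.96, adjusted p = 0.0514) was left out, and held in the other 9 such fits.

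ISG15 itself (ENSG00000187608, chr1:1001138-1014540, plus strand), the modifier that this enzyme attaches, had 13.0, 10.7, 12.9 and 12 CPM with AKB. It had 11.3, 8.78, 11.9 and 12.3 CPM with pyruvate and 9.04, 12, 10.9 and 10.01 CPM in untreated cells. The groups overlapped in all comparisons. With AKB it was at log2 0.21 against untreated cells (95% interval -0.07 to 0.49, adjusted p = 0.526), so a rise as large as that of UBE2L6 lies outside the interval. UBA7, named after its values were seen, had 0.772 to 1.23 CPM with AKB, 0.474 to 0.96 CPM with pyruvate and 0.331 to 0.612 CPM in untreated cells. The AKB libraries of UBA7 did not overlap the untreated ones, but none of the 3 tested genes of the conjugation list (UBA7, TRIM25 and ARIH1) passed in any comparison.

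The IFITM proteins sit in the plasma and endosomal membranes and hinder the fusion of enveloped viruses. IFITM1, the most abundant of them, had 209, 237, 261 and 238 CPM with AKB. It had 240.2, 220.2, 342 and 317 CPM with pyruvate, and 211, 221, 211 and 257 CPM in untreated cells. Libraries of all groups overlapped, and the highest values were those of pyruvate replicates 3 and 4. IFITM2 had 28.1, 32.2, 36 and 31.3 CPM with AKB. With pyruvate it had 23.7, 31.9, 33.7 and 29.2 CPM, and untreated cells had 19.2, 22.8, 17.6 and 26.1 CPM. All AKB libraries of IFITM2 were above all untreated ones, and the pyruvate libraries overlapped both.

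IFITM3 showed the same order, with 23.0, 26.6, 30.6 and 33.0 CPM with AKB. Pyruvate libraries had 19.5, 20.8, 33.3 and 32.2 CPM, and untreated libraries 17.2, 17.9, 19.0 and 21.6 CPM. AKB did not overlap untreated, and within pyruvate the values of replicates 3 and 4 were well above those of replicates 1 and 2. Against untreated cells the fold change with AKB was 1.49 for IFITM2 (log2 0.58, SE 0.14, adjusted p = 0.0575) and 1.5 for IFITM3 (log2 0.58, SE 0.18, adjusted p = 0.150), and for IFITM1 it was 1.05 (log2 0.07, adjusted p = 0.89), all by edgeR's quasi-likelihood test. IFITM2 passed also when untreated replicate 4 (log2 0.68, adjusted p = 0.0416) or pyruvate replicate 1 (adjusted p = 0.0351) was left out. Both IFITM2 and IFITM3 passed once pyruvate replicates 3 and 4 were left out of the fit (adjusted p = 0.0224 and 0.010), with the fold changes at log2 0.58 as before. They passed also with the trend of counts on GC content taken out of each library (log2 0.50 and 0.48, adjusted p = 0.0243 and 0.0179).

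Summed over the family, the counts were 260.1, 296, 328 and 302 CPM with AKB, 283, 273, 409 and 379 CPM with pyruvate, and 247.9, 262, 247.9 and 304 CPM in untreated cells. The sum is mostly IFITM1, and its groups overlapped. It did not pass in any comparison (log2 0.16 with AKB against untreated cells, adjusted p = 0.678, and log2 0.34 with pyruvate, adjusted p = 0.123). Without pyruvate replicates 3 and 4 the pyruvate value was log2 0.07. IFITM2 overlaps IFITM1 in the annotation and is near-identical to IFITM3, and the part of the division of shared reads in the differences of single IFITM genes was not tested.

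IFI6 (ENSG00000126709, chr1:27666061-27672218, minus strand) encodes a membrane protein with anti-apoptotic and antiviral activity, and it was the least abundant of the 9. It had 29, 31, 26 and 20 counts with AKB, 11, 3, 26 and 12 counts with pyruvate, and 10, 3, 15 and 14 counts in untreated cells. That is 1.23 to 1.91 CPM with AKB, 0.18 to 1.31 CPM with pyruvate and 0.184 to 0.844 CPM in untreated cells. AKB libraries lay above all untreated ones and overlapped pyruvate replicate 3. Its fold change with AKB against untreated cells was the largest of the 9 at 2.7 (log2 1.43), but so was its SE of 0.49. It did not pass (adjusted p = 0.207 by edgeR's quasi-likelihood test). In 1 of 21 alternatives, the fit to the 8 AKB and untreated libraries alone, IFI6 passed (adjusted p = 0.0381 by the same test). That fit called 10.1% of all genes. IFI35 (ENSG00000068079, chr17:43006725-43014456, plus strand), an interferon-induced leucine zipper protein, had 4.89, 3.95, 5.74 and 4.20 CPM with AKB. It had 3.49, 4.81, 6.26 and 5.13 CPM with pyruvate and 4.96, 3.49, 3.74 and 4.70 CPM in untreated cells. All of its groups overlapped (AKB against untreated cells log2 0.15, 95% interval -0.28 to 0.58).

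Neither transcription factor gene passed. IRF9 (ENSG00000213928, chr14:24161053-24166565, plus strand), the DNA-binding subunit of ISGF3, had 5.34, 5.74, 6.03 and 5.74 CPM with AKB. It had 5.80, 5.53, 6.52 and 7.05 CPM with pyruvate and 4.90, 4.77, 4.88 and 3.8 CPM in untreated cells. Both treated groups lay above every untreated library, and untreated replicate 4 lay well below the other 3. IRF1 (ENSG00000125347, chr5:132481609-132490798, minus strand), which activates interferon and interferon-induced genes, had 9.52, 8.46, 9.43 and 10.2 CPM with AKB. With pyruvate it had 8.65, 9.74, 10.6 and 10.1 CPM, and untreated cells had 6.28, 8.81, 6.78 and 8.26 CPM. The IRF1 groups overlapped through untreated replicate 2. With AKB, IRF9 and IRF1 were both at log2 0.32 against untreated cells (adjusted p = 0.313 and 0.302), and with pyruvate at 0.44 and 0.38 (adjusted p = 0.0785 and 0.101).

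The value of IRF9 depends on a gene that spans it. In GENCODE 29 a protein-coding gene on the same strand, AL136295.5 (ENSG00000259529), covers the whole of IRF9, shares 1838 exon bases with it (48.4% of the exon bases of IRF9) and has its own row in the count table. That row held 94, 124, 130 and 93 counts with AKB, 127, 144, 156 and 208 counts with pyruvate, and 97, 122, 138 and 192 counts in untreated cells. Untreated replicate 4, which had the lowest IRF9 level, had the highest count of the spanning gene among untreated libraries. When the rows were summed, an alternative chosen after seeing the data, IRF9 against untreated cells came to log2 -0.01 with AKB (adjusted p = 0.99) and 0.22 with pyruvate (adjusted p = 0.246). The direction with AKB thus turned, and the difference of IRF9 cannot be told apart from a different division of reads between these rows.

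**Figure D2:**
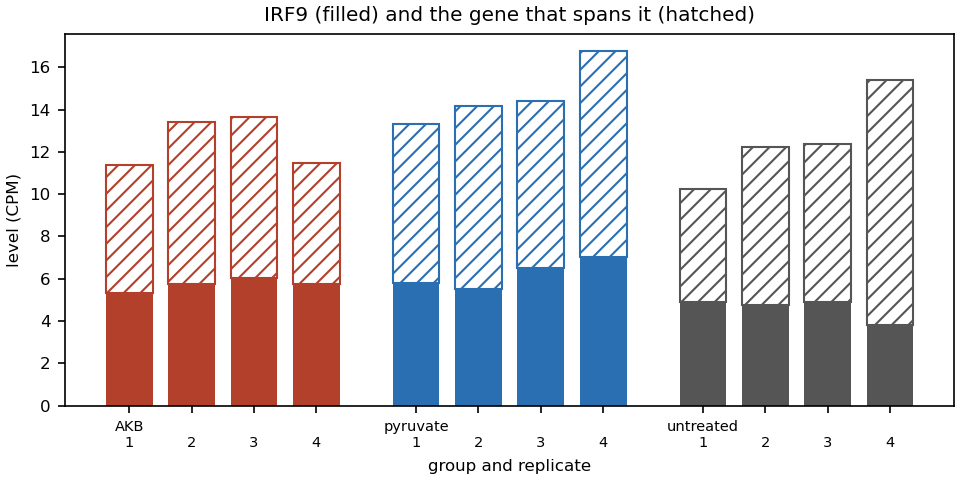
Level in CPM of IRF9 (filled) with that of the gene that spans it stacked on top (hatched), in each library of AKB, pyruvate and untreated cells. The filled part is 3.8 CPM in untreated replicate 4, while its stack reaches 15.4 CPM, the highest of the untreated libraries.

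Taken per length, as CPM per kilobase of the longest transcript (RPKM), the order of the 9 in untreated cells was IFITM1 at 263 (247.2 to 300.03), IFITM2 at 24.0 (19.7 to 29.2), IFITM3 at 23.4 (21.3 to 26.7) and ISG15 at 13.3 (11.5 to 15.2). Then came IFI35 at 3.40, UBE2L6 at 2.52, IRF9 at 2.50, IRF1 at 1.46 and IFI6 at 0.711. IRF9 is placed by its own row, so its place depends on the division of reads with the gene that spans it. Places also depend on the transcript taken for the length, which for IRF1 had 5153 bases. IFITM2 and IFITM3 overlapped each other, as did UBE2L6 and IRF9, whereas IFI35 (2.81 to 4.0) overlapped neither ISG15 above it nor UBE2L6 (2.14 to 2.69) below it. IRF1 (1.22 to 1.71) overlapped neither IRF9 above it nor IFI6 below it. With AKB, UBE2L6 stood at 5.23 RPKM (4.04 to 6.25) above IFI35 at 3.78 RPKM (3.19 to 4.62), and with pyruvate below it at 2.27 against 3.97 RPKM.

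The 9 genes are set here against all genes tested. In AKB against untreated cells 1 of 9 passed (UBE2L6), where 1.97% of all 13598 genes tested passed in either direction. Libraries did not overlap for 5 of 9 (IFITM2, IFITM3, UBE2L6, IFI6 and IRF9), all higher with AKB, where 8.74% of all genes were higher without overlap. At an unadjusted p below 0.05, 6 of 9 were higher, against 8.07% of all genes. All 9 fold changes were above 0, with a median of log2 0.32 against 0.01 over all genes tested. Since the 9 were chosen with results of these data known, these shares describe the genes and test nothing. With pyruvate against untreated cells edgeR called 0 of 9, where it called 1.95% of all genes. IRF9 was the 1 gene without overlap, higher in pyruvate, against 4.89% of all genes. At an unadjusted p below 0.05 there were 5 higher (IFITM1, IFITM2, IFITM3, IRF9 and IRF1), against 15% of all genes, and the median was log2 0.31 against -0.01 over all genes. IRF9 is counted here by its own row. Summed with the gene that spans it, both treated groups overlapped the untreated one. The sums were 11.4 to 13.6 CPM with AKB, 13.3 to 16.8 CPM with pyruvate and 10.3 to 15.4 CPM in untreated cells.

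**Figure D3:**
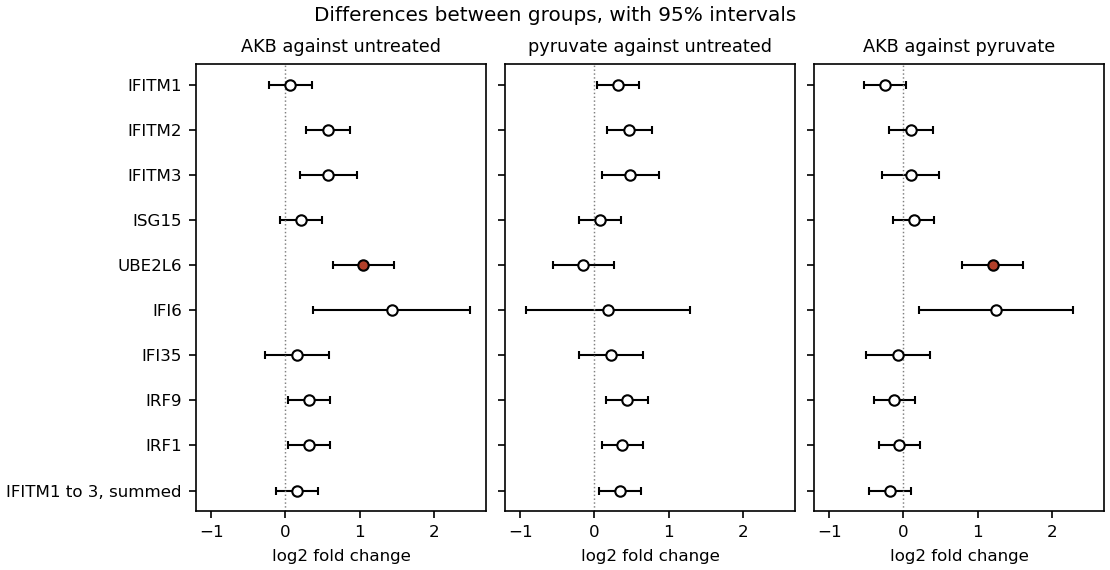
Log2 fold change of each gene and of the IFITM sum, from left to right for AKB over untreated cells, pyruvate over untreated cells and AKB over pyruvate, with 95% intervals from edgeR's quasi-likelihood fit to 12 libraries. Filled points passed an adjusted p of 0.05. The filled points are UBE2L6 at 1.05 against untreated cells and 1.2 against pyruvate. The comparisons in the left and middle panels share their 4 untreated libraries.

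The pyruvate values moved with 2 libraries. For all 9 genes the mean of pyruvate replicates 3 and 4 was above that of replicates 1 and 2, for example 330 against 230.2 CPM for IFITM1, 32.8 against 20.1 CPM for IFITM3 and 4.21 against 2.92 CPM for UBE2L6. Leaving both out took pyruvate against untreated cells to log2 0.03 for IFITM1, 0.09 for IFITM3, -0.06 for ISG15 and -0.52 for IFI6, while IRF9 and IRF1 stayed at 0.30 and 0.29. Leaving out replicate 1 instead gave 4 calls of 9 (IFITM2, IFITM3, IRF9 and IRF1), where 19.1% of all genes were called, and leaving out replicate 2 gave 3 (IFITM1, IFITM3 and IRF9), where 26.1% were called. DESeq2's Wald test on all 12 libraries called 3 (IFITM2, IRF9 and IRF1), where it called 12.7% of all genes, and limma-voom called 0. No batch is given in the labels, and no other group has libraries of this kind, so a within-batch value cannot be had. A technical split and a spread within pyruvate cannot be told apart. In AKB against untreated cells the calls among the 9 were 3 with these libraries left out (9.17% of all genes) and 3 with the GC trend taken out (9.05% of all genes), namely UBE2L6, IFITM2 and IFITM3 in each.

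**Figure D4:**
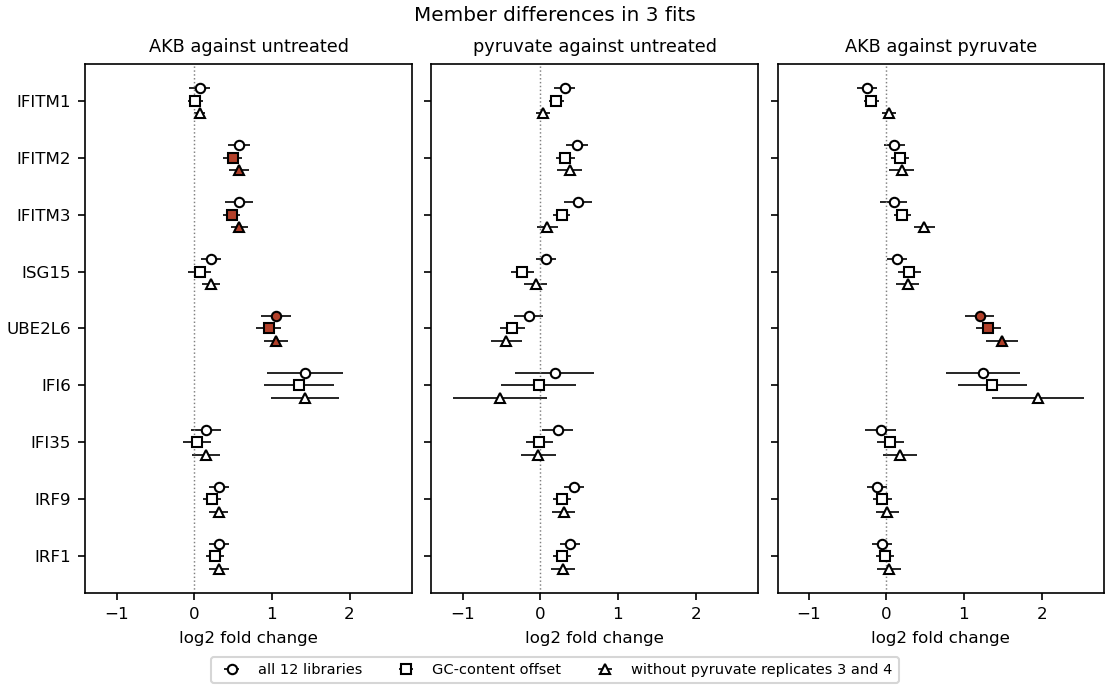
Log2 fold change ± SE of the 9 genes in the fit to all 12 libraries (circles), with the GC trend of each library taken out (squares) and with pyruvate replicates 3 and 4 left out (triangles), filled where the adjusted p was below 0.05. In the left panel, AKB against untreated, the symbols of a gene lie close together and UBE2L6 is filled in each fit. In the middle panel, pyruvate against untreated, IFITM3 moves between 0.48 and 0.09.

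AKB and pyruvate, given at the same dose for the same time, formed the 1 pair of compounds compared. They differed in UBE2L6, which was 2.30-fold higher with AKB than with pyruvate (log2 1.2, SE 0.19, 95% interval 0.79 to 1.61, adjusted p = 0.00993 by edgeR's quasi-likelihood test over all genes). All 4 AKB libraries were above all 4 pyruvate libraries, and the difference was log2 1.49 without pyruvate replicates 3 and 4. Fitting these 8 libraries alone gave log2 1.18 with adjusted p = 0.0802, in a fit that called 6 of all genes tested. This was the 1 call among the 9, against 3.13% of all genes, and the 1 gene without overlap, against 7.08% of all genes higher with AKB. At an unadjusted p below 0.05, 2 of 9 were higher (UBE2L6 and IFI6), against 12.2% of all genes.

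For the other genes the data did not separate the compounds, and the intervals of the difference show how far they could. In AKB against pyruvate IFITM2 was at log2 0.11 (-0.19 to 0.40), IFITM3 at 0.10 (-0.29 to 0.48) and ISG15 at 0.14 (-0.14 to 0.42). IRF9 was at -0.12 (-0.40 to 0.15), IRF1 at -0.06 (-0.33 to 0.22) and IFI35 at -0.07 (-0.50 to 0.36), so differences beyond about 0.5 on the log2 scale lie outside these intervals. IFITM1 was at -0.25 (-0.53 to 0.04) and turned to 0.04 without pyruvate replicates 3 and 4. IFI6 was at 1.25 (0.21 to 2.29, adjusted p = 0.142), an interval too wide to place it. These comparisons do not show that the compounds act alike on any of these genes.

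Other genes of the interferon pathway were taken from 11 lists that name 122 genes, of which 93 were in the count table and 78 passed the filter. With AKB against untreated cells 3 of 78 passed, all higher, where 1.97% of all genes passed. In that comparison 53 of 78 were above 0 (67.9%), with a median of log2 0.07, against 51.4% and 0.01 over all genes. With the GC trend taken out, 45 of 78 were above 0, with a median of 0.05. The lists differed in this. Of other interferon-induced genes 9 of 18 were above 0 (median -0.01), and of negative regulators 3 of 7 (-0.01). It was 11 of 14 for antiviral effectors (0.08), 8 of 10 for sensors and adaptors (0.19) and 6 of 6 for receptors (0.20). With pyruvate against untreated cells 1 of 78 passed, higher, where 1.95% of all genes passed, and 30 were above 0 (38.5%, median -0.06), against 49.0% and -0.01 over all genes. Without pyruvate replicates 3 and 4 this became 0 calls of 80, with 36 above 0 and a median of -0.0091, in a fit that called 0.71% of all genes. In AKB against pyruvate 1 of 78 passed, higher, where 3.13% of all genes passed, and 57 were above 0 (73.1%, median 0.12), against 53.7% and 0.03 over all genes. Without those libraries 4 of 80 passed, all higher, where 4.36% of all genes passed, and 54 were above 0. Interferon-induced genes of these lists differed widely in level. MX1 was at 0 to 0.176 CPM with AKB, 0 to 0.152 CPM with pyruvate and 0 in untreated cells, and IFIT1 at 0.309 to 0.9 CPM with AKB, 0.653 to 1.01 CPM with pyruvate and 0.551 to 0.844 CPM in untreated cells. MX1 did not pass the filter. BST2, which tethers budding virus to the cell surface, was at 104 to 109 CPM with AKB, 84.2 to 114 CPM with pyruvate and 84.3 to 89.5 CPM in untreated cells, so that AKB and untreated libraries did not overlap. BST2 passed in AKB against untreated cells with the GC trend taken out (log2 0.17, adjusted p = 0.0196) and without pyruvate replicates 3 and 4 (log2 0.27, adjusted p = 0.00177), but not otherwise with all 12 libraries and TMM scaling (log2 0.28, adjusted p = 0.182). IFI30, a lysosomal thiol reductase, was at 67.0 to 72.6 CPM with AKB, 55.02 to 73.0 CPM with pyruvate and 59.98 to 63.8 CPM in untreated cells. NMI and PLSCR1 went the other way, with every AKB library below every untreated one. NMI was at 43.5 to 50.4 CPM with AKB, 37.9 to 58.99 CPM with pyruvate and 55.6 to 59.4 CPM in untreated cells. PLSCR1 was at 43.4 to 49.1, 37.8 to 48.3 and 50.2 to 59.98 CPM in the same order. Both passed as lower with the GC trend taken out (log2 -0.31 and -0.25). They did so also without pyruvate replicates 3 and 4 (log2 -0.31 and -0.28). Of all genes, AKB against untreated cells called 9.05% with the GC trend taken out and 9.17% without those libraries. With neither change it called 1.97%. MX1, IFIT1, BST2, IFI30, NMI and PLSCR1 were named after their values were seen.

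SHFL, which blocks programmed ribosomal frameshifting in viral RNA, had 17.7, 19.1, 20.6 and 15.6 CPM with AKB. It had 12.1, 11.4, 14.8 and 13.8 CPM with pyruvate and 12, 12.9, 12.8 and 11.9 CPM in untreated cells. As for UBE2L6, every AKB library was above all others. SHFL was higher with AKB than in untreated cells (log2 0.56, SE 0.11, adjusted p = 0.0223) and than with pyruvate (log2 0.48, SE 0.11, adjusted p = 0.0399). HLA-E, a non-classical antigen-presenting molecule read by NK cells, had 28.4, 25.8, 29.8 and 27.0 CPM with AKB, 11.4, 19.5, 24.2 and 13.7 CPM with pyruvate, and 15.2, 15.6, 14.6 and 17.6 CPM in untreated cells. HLA-E was also above all others in each AKB library, and passed against untreated cells (log2 0.82, SE 0.19, adjusted p = 0.0445) but not against pyruvate (log2 0.69, adjusted p = 0.0619). Against pyruvate it passed in 7 of 22 alternatives, among them the GC offset (log2 0.76, adjusted p = 0.0119) and the fit without pyruvate replicates 3 and 4 (log2 0.84, adjusted p = 0.0222).

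TAPBP, tapasin of the peptide-loading complex, had 3.47, 3.15, 2.17 and 2.47 CPM with AKB, 1.66, 1.80, 3.89 and 3.41 CPM with pyruvate, and 0.386, 0.918, 0.217 and 1.09 CPM in untreated cells. Both treated groups were above all untreated libraries, and it passed with AKB (log2 2.12, SE 0.44, adjusted p = 0.0305) and with pyruvate (log2 2.06, SE 0.44, adjusted p = 0.0404, both by edgeR's quasi-likelihood test). TAPBP and HLA-E lie in the major histocompatibility region, of which some annotations hold several haplotypes. No source used here states how the authors' counting dealt with such copies. These calls were near the threshold: leaving out 1 of the 12 libraries at a time ended the call against untreated cells of SHFL in 7 fits (untreated replicates 1 to 4 and AKB replicates 1 to 3, adjusted p 0.0597 to 0.0911) and of HLA-E in 8 (each untreated and AKB library, adjusted p 0.0778 to 0.153). It ended that of TAPBP with AKB in 7 fits (all untreated and AKB libraries but untreated replicate 4, adjusted p 0.0591 to 0.116). With pyruvate it ended the call of TAPBP in 9 (untreated replicates 1 to 3, AKB replicates 1 to 4, pyruvate replicates 3 and 4, adjusted p 0.0541 to 0.138), and leaving out both of those pyruvate libraries gave log2 1.42 (adjusted p = 0.206). For SHFL against pyruvate 10 fits ended the call (all but pyruvate replicates 1 and 2, adjusted p 0.0506 to 0.112).

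Upstream of the response, none of the receptor, kinase and STAT genes passed by edgeR's quasi-likelihood test with TMM scaling. With the GC trend taken out, IFNAR2 (log2 0.32, adjusted p = 0.0184), STAT2 (log2 0.25, adjusted p = 0.0186) and IFNAR1 (log2 0.22, adjusted p = 0.0220) passed in AKB against pyruvate, where that fit called 14.8% of all genes. STAT2 had a mean of 46.2 ± 2.73 CPM with AKB, 39.2 ± 3.13 CPM with pyruvate and 39.9 ± 2.07 CPM in untreated cells (SD, n = 4 each), and AKB did not overlap either (log2 0.21 against untreated cells, adjusted p = 0.228). The separation was a near tie, with the lowest AKB library at 42.46 CPM, the highest of pyruvate at 42.45 CPM and of untreated cells at 42.32 CPM. Of all genes, 8.74% were higher with AKB than in untreated cells without overlap, and 7.08% higher than with pyruvate. STAT3, with group means of 203 to 212 CPM, was at -0.07 with AKB, without overlap, and -0.03 with pyruvate. The receptor genes IFNAR2 and IFNGR2 were at log2 0.28 and 0.29 with AKB against untreated cells without overlap (adjusted p = 0.212 and 0.239), IFNGR1 was at 0.20 and IFNAR1 at 0.03. The kinases JAK1 and TYK2 were at 0.10 and 0.12. IFNAR2 passed in 2 of 22 alternative settings of that comparison. With pyruvate IFNAR1 was at -0.30, IFNAR2 at -0.08, IFNGR1 at -0.12, IFNGR2 at 0.15, JAK1 at -0.02 and TYK2 at 0.25. These values moved with pyruvate replicates 3 and 4. IFNAR1 had a mean of 63.2 CPM in them and 88.6 CPM in pyruvate replicates 1 and 2, against 93.1 CPM in untreated cells, and TYK2 had 118 CPM and 84.5 CPM, against 85.4 CPM in untreated cells. Without replicates 3 and 4 the values with pyruvate were -0.072 for IFNAR1, 0.044 for IFNAR2, 0.040 for IFNGR1, 0.11 for IFNGR2, 0.15 for JAK1 and -0.015 for TYK2, so that IFNAR2, IFNGR1, JAK1 and TYK2 turned.

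**Figure D5:**
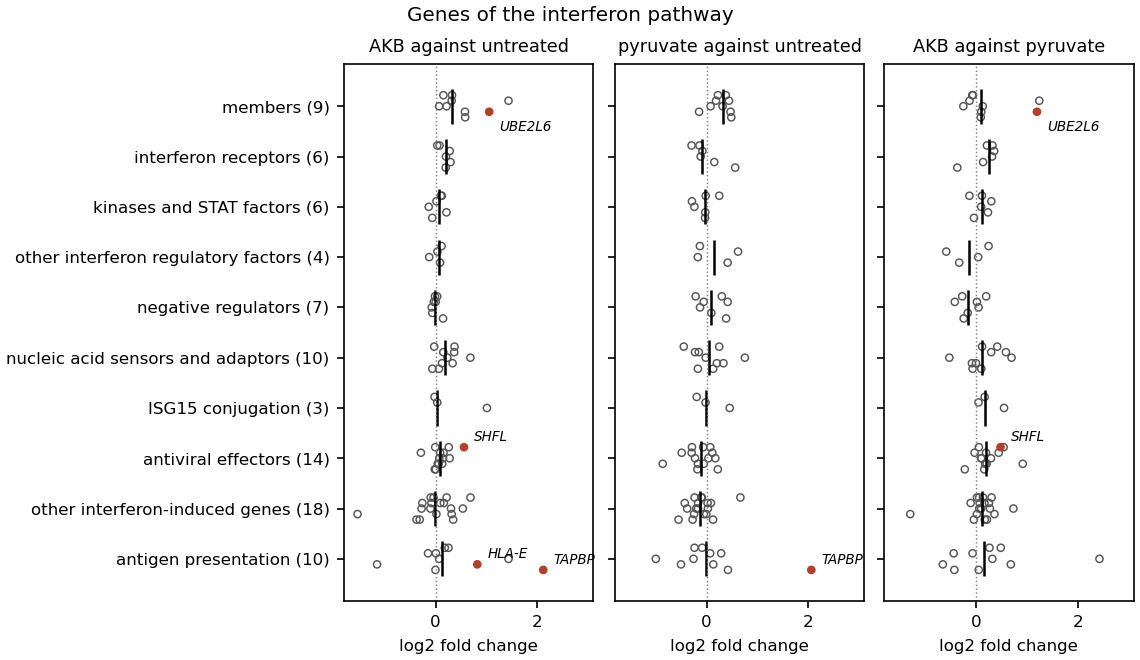
Log2 fold change of the 9 genes (top row) and of the tested genes of each pathway list (number in brackets), from left to right for AKB over untreated cells, pyruvate over untreated cells and AKB over pyruvate. Each circle is a gene, filled and named where the adjusted p was below 0.05, and black lines are list medians. UBE2L6, SHFL, HLA-E and TAPBP are the filled genes, and most other genes lie within 1 of 0.

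Across libraries the 9 genes moved together only in part. The median Pearson correlation of log2 CPM over their 36 pairs was 0.523 in 12 libraries. It was 0.424 after group means were subtracted and 0.406 without pyruvate replicates 3 and 4. Depth and GC trend differ between libraries and are common to the genes within each, so the values are descriptions. The mean standardised level of the 9 was 0.22 to 0.97 in AKB libraries, -0.42, -0.49, 1.05 and 0.67 in pyruvate replicates 1 to 4, and -0.99 to -0.43 in untreated libraries. All AKB libraries were above all untreated ones, and the pyruvate libraries lay on either side. Of 9841 other genes with a mean of at least 5 CPM, among those most like this mean over 12 libraries were CNN1 (r = 0.970), CIB2 (0.959), SPI1 (0.957) and KCNAB2 (0.954). With group means subtracted they were ECH1 (0.981), THRA (0.969), SEM1 (0.968), CIAO2B (0.966) and MRPL12 (0.965). The transcript GC content of SEM1 is 31.8%, and that of each other gene named here for likeness is 57.9% or more.

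The authors' deposited table puts untreated over treated cells, so that a negative value means higher with the compound. In the authors' deposited table UBE2L6 was at log2 -1.06 for AKB (their adjusted p = 5.38e-05) and 0.18 for pyruvate (0.631), and in the authors' deposited table of AKB over pyruvate it was at 1.24 (1.22e-06). IFITM3 was below 0.05 for AKB (log2 -0.58, adjusted p = 0.0435) and IFITM2 for pyruvate (log2 -0.55, adjusted p = 0.0498) in the authors' deposited table. The shares of all genes below 0.05 in the authors' deposited tables were 4.9% for AKB, 12% for pyruvate and 10% for AKB over pyruvate. For IRF9 the authors' deposited table gave smaller differences than the counts here, -0.22 for AKB and -0.13 for pyruvate, and for IFI35 it gave -0.01 and 0.01.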

How the data were processed

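Gene counts from K562 RNA were deposited by the authors as estimated counts per Ensembl gene, made with Salmon 1.2.1 per the submitters' processing notes. No source used here names the genome build, annotation or strand setting. The authors' deposited comparison tables, made with DESeq2 1.26.0 in R 3.6.3 per the same notes, hold a mean normalised signal, log2 fold changes, a test score and p-values. Their direction was checked against the counts, which gave 98.1 to 99.3% of called genes the same sign.

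The estimated counts were whole (rounding changed 0 values). Genes were tested in R 4.3.3 with edgeR 4.0.16 (TMM, filterByExpr with a minimum count of 10, 1 quasi-likelihood fit to 12 libraries) and adjusted by Benjamini-Hochberg over 13598 genes, with calls below 0.05. CPM is per 1e6 counts of the tested genes in a library, after TMM scaling. Depth, 15353200 to 21301073 counts, limits the precision of IFI6 most. Alternatives used limma 3.58.1, DESeq2 1.42.0, other scalings and filters, a GC offset (a spline with 5 degrees of freedom, 13047 genes with a GC value), a replicate block and libraries left out. Symbols came for 16060 identifiers (90.3%). Promoters came from RefSeq, GRCh38.p14, which matched 8 of 9 symbols. IFITM alignments used MAFFT on GENCODE 29 coding sequences.

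The 9 genes and the pathway lists were chosen with earlier results of these data known. Named in the text are the 9, the receptor, kinase and STAT genes shown, and every list gene called in a comparison. Some genes outside this rule are marked where they appear. Others outside it are cell markers, genes named for likeness, genes of the conjugation list and pathway genes that an alternative called. Some named items are not reported here.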

Additional observations from a re-analysis of the deposited data

Results flagged for a closer look

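In untreated replicate 4, IRF9 stood at 3.8 CPM, apart from the other untreated libraries at 4.77 to 4.90 CPM. In AKB replicate 4, IFNAR2 stood at 31.5 CPM, apart from the other AKB libraries at 26.4 to 27.0 CPM. Both had a gap to the nearest library, as a share of the group's range, above Dixon's 95% critical value for 4 libraries. Chance flags about 1 in 20 groups, and 66 groups were examined. The count of the gene that spans IRF9 was the highest of the untreated libraries in that same one, and its part in the IRF9 value was not tested beyond the summed counts given above.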

How the results depend on the processing

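Of 704 values that alternatives gave for 32 log2 fold changes, 612 kept direction and side of the threshold, 52 lost the call, 22 gained it and 18 turned. The causes were not tested. The share of all genes called, in brackets, moved with the counts. AKB against untreated cells called 1 of the 9 genes and 3 pathway genes (1.97%), but 2 of the 9 with library size alone (1.99%) and with DESeq2 (3.96%), and 4 and 11 with the 8 libraries alone (10.1%). The GC offset (9.05%), and separately leaving out pyruvate replicates 3 and 4 (9.17%), gave 3 and 10, of which 2 pathway genes were lower (PLSCR1 and NMI). Leaving out 1 library gave 0 to 2 and 0 to 3 (0.668 to 2.58%). Pyruvate against untreated cells called 0 and 1 (1.95%), but 3 and 4 with DESeq2 (12.7%), 2 of the 4 lower. It called 4 pathway genes with the GC offset (9.16%), 3 of them lower (PLSCR1, PML and DTX3L), 0 with the 8 libraries alone (0.12%) and 0 without pyruvate replicates 3 and 4 (0.71%). Leaving out 1 library gave 0 to 4 and 0 to 15 (0.231 to 26.1%), 8 of the 15 lower. AKB against pyruvate called 1 and 1 (3.13%), but 0 and 0 with the 8 libraries alone (0.0449%). Its pathway calls were 0 with no filter (1.2%), 5 with DESeq2 (10.7%), 2 with limma-voom (3.1%), 4 without pyruvate replicates 3 and 4 (4.36%) and 14 with the GC offset (14.8%), 3 of these lower (IRF3, SOCS3 and PTPN2). Leaving out 1 library gave 0 to 15 (0.493 to 15.3%), 5 of the 15 lower, where the 9 gave 1 in each fit. The IFITM sum for pyruvate against untreated cells was log2 0.25 to 0.44 with 1 library left out and passed without pyruvate replicate 1 or 2 (adjusted p = 0.0463 and 0.0304).

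With the replicate number as a block, AKB against untreated cells called 2 of the 9 and 1 pathway gene (1.16%), and pyruvate against untreated cells 3 pathway genes (4.16%), 2 of them lower. Same-numbered libraries correlated at -0.0996 to 0.202 after group means were removed, so the numbers were not taken to pair libraries.

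Some directions turned. For pyruvate against untreated cells the GC offset gave ISG15 -0.23, IFI6 -0.017 and IFI35 -0.012, and leaving out pyruvate replicates 3 and 4 gave ISG15 -0.061, IFI6 -0.52 and IFI35 -0.024. For AKB against pyruvate the GC offset gave IFI35 0.051, and leaving out those libraries gave the IFITM sum 0.090, IFITM1 0.035, IFI35 0.18, IRF9 0.011 and IRF1 0.033. With 1 library left out, IFI6 for pyruvate against untreated cells ranged over -0.34 to 0.48, IFI35 for AKB against pyruvate over -0.21 to 0.049 and IFITM3 over -0.035 to 0.21. Summed with the spanning gene, IRF9 for AKB against untreated cells was at -0.0084.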
